A study of Rattus norvegicus with 24 samples.

Results

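The renin-angiotensin-aldosterone system was followed in the cystic kidney through 8 genes: Agt, Ace, Enpep and Mme of the peptide cascade, the angiotensin receptor gene Agtr1a, and Nr3c2, Hsd11b2 and Sgk1 of the mineralocorticoid arm. They were taken by name from the 17334 rat Entrez gene identifiers in the tables. All 8 of 8 were found under a single identifier each (Agt 24179, Ace 24310, Agtr1a 24180, Enpep 64017, Mme 24590, Nr3c2 25672, Hsd11b2 25117 and Sgk1 29517), and all 8 passed the filter on low counts that left 12778 genes for testing.

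In this system angiotensinogen is cleaved to angiotensin I, which angiotensin-converting enzyme turns into angiotensin II, and angiotensin II acts through its type 1 receptor on blood vessels, proximal tubules and the adrenal gland. Peptidases of the tubular brush border then trim or divert the angiotensin peptides. Aldosterone from the adrenal cortex acts in the distal nephron through the mineralocorticoid receptor, which raises sodium reabsorption through the epithelial sodium channel, and the system is a main drug target in chronic and polycystic kidney disease.

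Left kidneys of 24 male PKD/Mhm (Cy/+) rats, a strain in which heterozygous carriers of a missense change in Anks6 form kidney cysts, were studied by RNA sequencing at the age of 8 months, with 6 animals in each of 4 groups. The Ctrl animals were untreated. Human skin-derived ABCB5+ stromal cells were injected every month for 6 months into the peritoneum (i.p. ABCB5+) or a vein (i.v. ABCB5+). The CoCM animals received medium conditioned by ABCB5+ cells and stimulated THP-1-derived macrophages (THP-1 is a human monocytic cell line). The sources used here differ on whether CoCM went into the peritoneum or a vein. All 4 groups carried the same heterozygous genotype, told by palpation of the abdomen, and no non-cystic animal and no group given a vehicle was analysed here. Each kidney gave a single library of whole-tissue RNA, with 9304601 to 14125442 estimated counts. Ctrl animals bore other numbers than treated animals and no batch was given, so that an order of handling and the treatment cannot be told apart.

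On the first principal component, which held 56.31% of the variance, 4 animals lay at 80.83 to 97.42 and the other 20 at -53.01 to 11.53. The 4 that stood apart were CoCM animal 39, i.p. ABCB5+ animal 38 and i.v. ABCB5+ animals 36 and 37. The summed level of 6 injured tubule markers was 561 to 947 CPM (counts divided by the scaled size of each library) in these 4 animals and 7224 to 14076 in the others. Differences in the 8 genes are therefore given over 24 animals and over the 20, and so are the counts over the wider gene lists. Of the kidney markers written for this work, those of the proximal tubule (8 of 8), thick ascending limb (4 of 4), principal cells (7 of 7) and podocytes (5 of 5) passed the filter, whereas of the 4 markers of the distal convoluted tubule only Slc12a3 and Calb1 did.

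For the genes of the peptide cascade the sequence before the start site is shown where RefSeq (GRCr8) listed a single start and the stretch lay outside the annotated gene, which held for Ace and Enpep. They are shown as the stretches in which the motifs below were counted. Of the 8 genes, 5 had a window in the table: Ace, Agtr1a, Enpep, Mme and Sgk1. Each line holds the 250 bases before the start, 5′ to 3′ on the strand of the gene, and capitals mark matches, on either strand, to the letters TATAAA (the core of a TATA box), GGGCGG (a GC box), AGGTCA (a nuclear receptor half-site) or GTTAAT (an HNF1 half-site). Ace lay at chr10:91409879-91410128 on the plus strand and Enpep at chr2:220526219-220526468 on the minus strand.
Ace: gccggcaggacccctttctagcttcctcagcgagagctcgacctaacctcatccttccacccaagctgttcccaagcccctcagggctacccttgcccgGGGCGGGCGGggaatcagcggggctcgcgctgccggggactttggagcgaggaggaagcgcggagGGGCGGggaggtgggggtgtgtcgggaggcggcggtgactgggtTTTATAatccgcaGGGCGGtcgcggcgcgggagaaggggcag
Enpep: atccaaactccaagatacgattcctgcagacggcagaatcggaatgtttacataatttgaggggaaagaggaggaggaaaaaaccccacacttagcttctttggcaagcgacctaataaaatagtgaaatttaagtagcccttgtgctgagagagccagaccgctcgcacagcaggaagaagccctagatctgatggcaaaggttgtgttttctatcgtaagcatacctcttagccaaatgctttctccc
The Ace stretch held 1 TATAAA match and 4 GGGCGG matches, of which a pair overlapped, and 69.2% of its bases were G or C. The Enpep stretch held none of the 4 motifs and 45.2% G or C, against a median of 51.2% over the 250 bases before all listed rat starts. Of these 33469 stretches of the same length, 12.9% held TATAAA, 30.5% GGGCGG, 14.1% AGGTCA and 6.5% GTTAAT. In the 250 bases before the Mme start, which lay inside the annotated gene, there were 2 GGGCGG matches and 1 AGGTCA match.

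No gene of the 8 changed between groups at an adjusted p-value under 0.05 in edgeR. Against Ctrl, the smallest p-values before adjustment were those of Agtr1a, which encodes the type 1 angiotensin II receptor and was lower after CoCM than in Ctrl by 0.50 ± 0.18 (SE) on the log2 scale, and Sgk1, which encodes a kinase induced by aldosterone and was higher after i.v. ABCB5+ by 0.61 ± 0.28. Their adjusted p-values were 0.338 and 0.673. Agt, Mme and Enpep had larger or similar differences with larger errors, and single kidneys within a group differed up to 21.4-fold in Agt. The number of the 8 genes with an adjusted p-value under 0.05 was 0 in each of the 4 comparisons and over the 4 groups, and it was 0 as well with DESeq2, with limma on log2(TPM + 1) and with limma voom. Of all 12778 genes, 0.00783% were called after CoCM and 0.0% in the other comparisons.

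At an unadjusted p-value under 0.05 in edgeR, 1 of the 8 genes was lower after CoCM (11.9% of all genes passed, 5.96% being lower), 0 passed after i.p. ABCB5+ (1.77%), 1 was higher after i.v. ABCB5+ (5.78%) and 1 was lower after i.p. than i.v. ABCB5+ (2.14%). With the 20 animals 1 was lower after CoCM (9.69% of all genes were lower) and 1 between the routes (0.683%). After i.p. or i.v. ABCB5+ 0 passed, with 0.753% of all genes higher after i.v. ABCB5+. Over the 4 groups Agtr1a passed it (adjusted p = 0.817), against 4.71% of all genes. The groups compared overlapped for all 8 genes in each comparison, while the share of all genes without overlap was 1.38% after CoCM, 0.047% after i.p. ABCB5+, 0.11% after i.v. ABCB5+ and 0.0626% between the cell groups. The log2 fold change was above 0 for 6 of 8 genes after CoCM (median 0.41, all genes 0.01), for 6 of 8 after i.p. ABCB5+ (0.21, all genes 0.00) and for 7 of 8 after i.v. ABCB5+ (0.36, all genes 0.01). Over the 20 animals it was above 0 for 5 of 8 genes after CoCM (median 0.15), for 6 of 8 after i.p. ABCB5+ (0.07) and for 3 of 8 after i.v. ABCB5+ (-0.06), so that the median after i.v. ABCB5+ turned without the 4 animals. These 3 comparisons share the Ctrl animals. Among all genes, those with an unadjusted p under 0.05 made up 1.26% (higher) and 0.509% (lower) after i.p. ABCB5+, 4.44% and 1.34% after i.v. ABCB5+, and 0.689% and 1.46% between the routes.

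**Figure D1:**
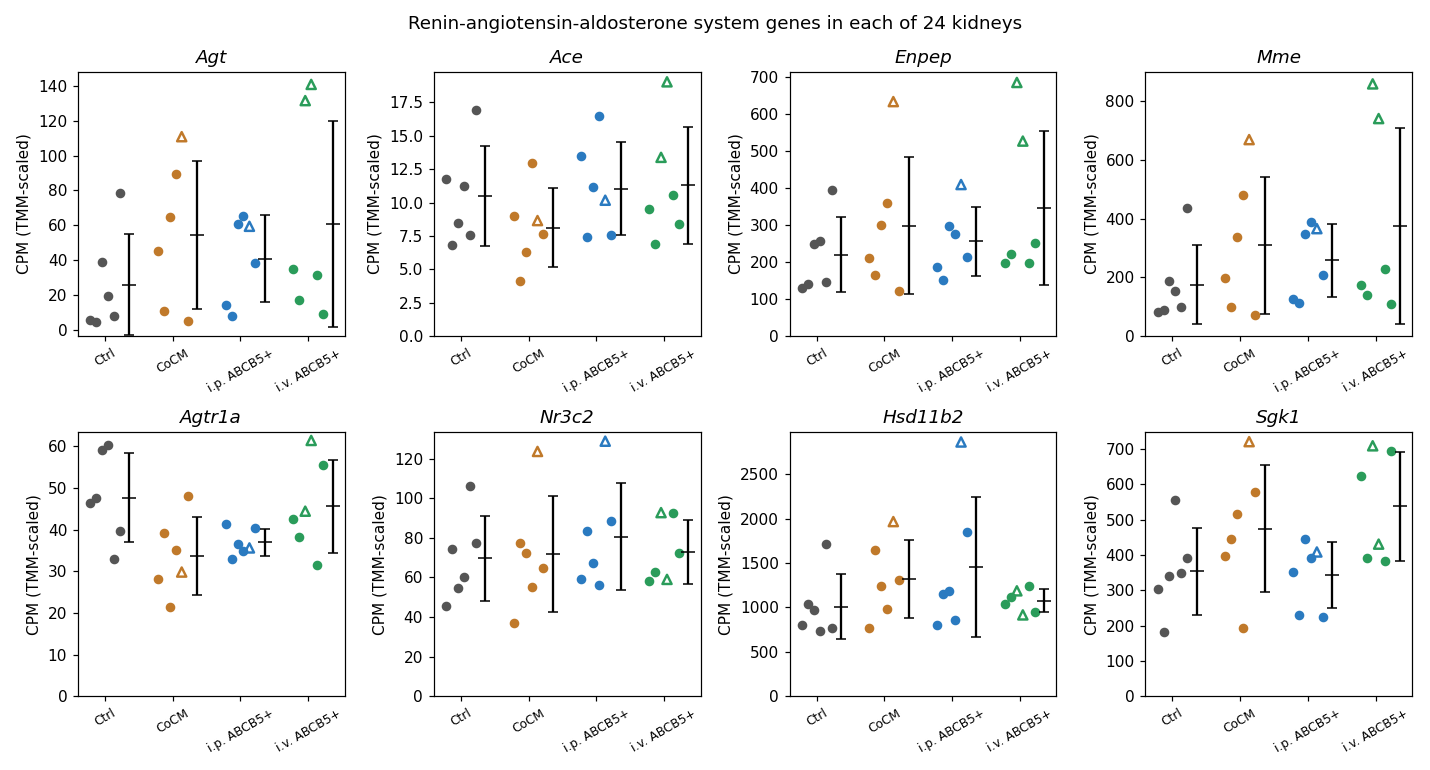
CPM of the 8 genes (vertical axes, TMM-scaled, linear) in each of 24 kidneys by group. Circles are single animals, open triangles the 4 animals that stood apart, and the bars beside them the mean and SD over 6 animals. All groups overlap in every panel. Agt, Enpep and Mme are highest in a triangle in the CoCM and i.v. ABCB5+ groups, and Sgk1 lies at 382 CPM or more in all 6 i.v. ABCB5+ animals.

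Agt encodes angiotensinogen, the precursor of the angiotensin peptides, which the kidney makes in the proximal tubule in addition to the liver. Its level was 4.44 to 78.7 CPM in Ctrl (median 13.8), 5.17 to 111 after CoCM (median 55.0), 7.88 to 65.1 after i.p. ABCB5+ (median 48.8) and 8.93 to 141 after i.v. ABCB5+ (median 33.2). The groups overlapped over most of their ranges, and the libraries held between 67 and 1515 counts of Agt. The log2 fold change against Ctrl was 1.07 ± 0.80 after CoCM (adjusted p = 0.554, edgeR), 0.66 ± 0.80 after i.p. ABCB5+ (0.978) and 1.23 ± 0.81 after i.v. ABCB5+ (0.674). Without the 4 animals the values were 0.71, 0.52 and -0.17. The 2 highest kidneys, i.v. ABCB5+ animals 36 and 37 at 131 and 141 CPM, were both among those 4.

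Mme encodes neprilysin, a brush border peptidase that forms angiotensin 1-7 and degrades natriuretic peptides. Its level ran from 82.1 to 436 CPM in Ctrl (median 126), from 71.4 to 669 after CoCM (266), from 113 to 388 after i.p. ABCB5+ (277) and from 110 to 859 after i.v. ABCB5+ (200). The medians were higher in the 3 treated groups than in Ctrl, and the ranges overlapped in all of them. Against Ctrl the log2 fold change was 0.83 ± 0.59 after CoCM (adjusted p = 0.539, edgeR), 0.57 ± 0.59 after i.p. ABCB5+ (0.978) and 1.11 ± 0.60 after i.v. ABCB5+ (0.673). Over the 20 animals it was 0.42, 0.44 and -0.10.

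Enpep encodes aminopeptidase A, which converts angiotensin II to angiotensin III. Ctrl kidneys held 131 to 394 CPM (median 197), CoCM kidneys 122 to 635 (256), i.p. ABCB5+ kidneys 151 to 410 (246) and i.v. ABCB5+ kidneys 197 to 687 (236). The lowest i.v. ABCB5+ kidney lay at the level of the Ctrl median, and 4 of the 6 lay between 197 and 251 CPM, within the Ctrl range. The log2 fold change after i.v. ABCB5+ was 0.66 ± 0.40 (95% interval -0.17 to 1.48, adjusted p = 0.673, edgeR) and -0.02 without the 4 animals. After CoCM it was 0.44 ± 0.40 and after i.p. ABCB5+ 0.22 ± 0.40, and over 20 animals 0.06 ± 0.29 and 0.04 ± 0.29.

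Ace encodes angiotensin-converting enzyme, known in the kidney from endothelium and proximal brush border, and was the least abundant of the 8 genes. It was read with 54 to 229 counts per library, and its level was 6.83 to 16.96 CPM in Ctrl (median 9.84), 4.11 to 12.97 after CoCM (8.15), 7.43 to 16.5 after i.p. ABCB5+ (10.7) and 6.90 to 19.0 after i.v. ABCB5+ (10.1). CoCM held the 2 lowest kidneys. The log2 fold change was -0.37 ± 0.28 after CoCM (adjusted p = 0.558, edgeR; -0.40 over 20 animals), 0.08 ± 0.28 after i.p. ABCB5+ and 0.11 ± 0.28 after i.v. ABCB5+. Over 20 animals the last 2 were 0.11 and -0.25.

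Agtr1a was lower than the Ctrl mean in 5 of 6 CoCM kidneys and in 6 of 6 i.p. ABCB5+ kidneys. The levels were 33.02 to 60.3 CPM in Ctrl (median 47.0), 21.4 to 48.2 after CoCM (32.4), 33.02 to 41.3 after i.p. ABCB5+ (36.1) and 31.4 to 61.4 after i.v. ABCB5+ (43.4). Of the 6 CoCM kidneys, 3 lay below all Ctrl kidneys, and no i.p. ABCB5+ kidney did. After CoCM the log2 fold change was -0.50 ± 0.18 (0.71-fold, 95% interval 0.55 to 0.91, adjusted p = 0.338 in edgeR), and -0.48 ± 0.19 over 20 animals (adjusted p = 0.245). After i.p. ABCB5+ it was -0.37 ± 0.18 (95% interval -0.74 to 0.00, adjusted p = 0.978 in edgeR) and after i.v. ABCB5+ -0.07 ± 0.18. Over 20 animals these were -0.35 and -0.19. Under the 8 other settings Agtr1a ran from -0.638 to -0.476 after CoCM, from -0.473 to -0.353 after i.p. ABCB5+ and from -0.362 to -0.067 after i.v. ABCB5+. In these edgeR, DESeq2 and limma fits the smallest p after i.v. ABCB5+ was 0.0283 before adjustment and 0.751 after it.

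In the exact permutation test over all divisions of the 12 animals into 6 and 6 (two-sided, smallest possible p = 0.00216), Agtr1a gave p = 0.0411 for CoCM and p = 0.0455 for i.p. ABCB5+ against Ctrl. It was the only gene of the 8 with an exact p under 0.05 in either comparison, and 16.9% and 2.35% of all genes had such a p. Without the 4 animals the exact p was 0.0714 and 0.0758. When each of the 12 animals was left out in turn, the exact p for CoCM stayed under 0.05 in 5 of 12 cases (0.0152 to 0.0801) and that for i.p. ABCB5+ in 4 of 12 (0.00649 to 0.0866). The first did not without CoCM animals 26, 34 or 39 or Ctrl animals 1, 12, 18 or 22, and the second not without the same Ctrl animals or i.p. ABCB5+ animals 30, 31, 32 or 38. Agtr1b, a near-identical second copy of the receptor gene in rodents, was listed at 2.74 to 17.9 CPM, and reads that fit both copies could have been split either way, so that the Agtr1a level is uncertain to that extent.

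Markers of vascular cells were set beside Agtr1a. Of 5 endothelial markers tested, 3 were lower after CoCM at an unadjusted p under 0.05 in edgeR, with 24 animals and with 20. None passed the adjusted threshold. Of all genes, 5.96% were lower at the unadjusted one with 24 animals and 9.69% with 20. The summed level of the 5 endothelial markers was 427 to 501 CPM in Ctrl (median 478), 246 to 495 after CoCM (366), 355 to 516 after i.p. ABCB5+ (453) and 407 to 525 after i.v. ABCB5+ (435), and none of the 5 was at 0 in any kidney. Of 6 markers of vascular smooth muscle and pericytes, 1 was lower after CoCM at the unadjusted threshold, with 24 animals and with 20 (5.96% and 9.69% of all genes). Between the routes, where Agtr1a was lower after i.p. ABCB5+ by 0.30 ± 0.18, 3 of the 6 were higher with 24 animals (0.689% of all genes). With 20 animals only Myh11 was (0.45%). The summed level of the 6 was 736 to 1571 CPM in Ctrl (median 984), 555 to 1825 after CoCM (855), 584 to 1408 after i.p. ABCB5+ (890.02) and 499 to 1173 after i.v. ABCB5+ (818), and none of the 6 was at 0 in any kidney. The part of both lists in the Agtr1a difference was not tested. In whole-kidney RNA, fewer cells of a type and less RNA per cell cannot be told apart.

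Nr3c2 encodes the mineralocorticoid receptor. Its level was 45.5 to 106 CPM in Ctrl (median 67.3), 37.1 to 124 after CoCM (68.6), 56.1 to 129 after i.p. ABCB5+ (75.3) and 57.9 to 92.8 after i.v. ABCB5+ (67.4). The 4 medians lay within 8 CPM of each other. The log2 fold changes against Ctrl were 0.04 ± 0.25, 0.21 ± 0.25 and 0.06 ± 0.25 in that order, and the 95% interval for CoCM ran from -0.48 to 0.56. Over 20 animals they were -0.20, 0.03 and 0.03.

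Hsd11b2 encodes the enzyme that inactivates glucocorticoids in aldosterone target cells and so keeps the mineralocorticoid receptor free for aldosterone. It was read at 736 to 1710.5 CPM in Ctrl (median 889), 764 to 1966 after CoCM (1275), 803 to 2863 after i.p. ABCB5+ (1168) and 915 to 1246 after i.v. ABCB5+ (1078). The i.v. ABCB5+ kidneys were the most alike, with a 1.36-fold span, and the i.p. ABCB5+ kidneys spanned 3.56-fold. The log2 fold change was 0.39 ± 0.28 after CoCM (adjusted p = 0.54, edgeR), 0.53 ± 0.28 after i.p. ABCB5+ (95% interval -0.05 to 1.12, adjusted p = 0.978) and 0.10 ± 0.28 after i.v. ABCB5+. The highest kidney of the i.p. ABCB5+ group was animal 38, 1 of the 4 that stood apart, and over 20 animals the value there was 0.22 ± 0.24. It was 0.23 ± 0.24 after CoCM and 0.11 ± 0.26 after i.v. ABCB5+ over the same 20.

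Sgk1 encodes serum/glucocorticoid-regulated kinase 1, which slows the removal of the sodium channel from the cell surface and is also induced rapidly by cell stress. Its level was 180 to 557 CPM in Ctrl (median 344), 192 to 721 after CoCM (481), 225 to 444 after i.p. ABCB5+ (372) and 382 to 709 after i.v. ABCB5+ (527). All 6 i.v. ABCB5+ kidneys lay above the Ctrl mean, and 3 of them lay above the whole Ctrl and i.p. ABCB5+ ranges. Against Ctrl the log2 fold change after i.v. ABCB5+ was 0.61 ± 0.28 (1.52-fold, 95% interval 1.02 to 2.27, adjusted p = 0.673 in edgeR), and 0.56 ± 0.30 over 20 animals. Under the 8 other settings the log2 fold change after i.v. ABCB5+ ran from 0.318 to 0.608. After CoCM it was 0.43 ± 0.28, with 0.26 ± 0.28 over 20 animals and 0.009 with limma voom and sample weights. After i.p. ABCB5+ it was -0.05 ± 0.28, and -0.10 over 20 animals.

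The i.p. and i.v. ABCB5+ groups received the same cells by different routes. Of the 8 genes, Sgk1 had the smallest p between these groups before adjustment in edgeR, with all animals and with 20. It was lower after i.p. than after i.v. injection by 0.65 ± 0.28 on the log2 scale (0.64-fold, 95% interval 0.43 to 0.95, adjusted p = 1.0 in edgeR), with 6 of 6 i.p. kidneys under the i.v. mean. Over 20 animals the difference was -0.67 ± 0.31, and under the 8 other settings it ran from -0.666 to -0.31. The exact permutation test gave p = 0.0476 against Ctrl and p = 0.0368 between the routes, where 3.39% and 1.78% of all genes had an exact p under 0.05. With 1 animal left out in turn the first stayed under 0.05 in 5 of 12 cases (0.013 to 0.0974) and the second in 6 of 12 (0.026 to 0.0736), and without the 4 animals they were 0.105 and 0.111. The first did not without Ctrl animals 1, 12, 18 or 23 or i.v. ABCB5+ animals 28, 36 or 43, and the second not without the same i.v. ABCB5+ animals or i.p. ABCB5+ animals 29, 30 or 41. The other 7 genes had adjusted p-values of 1.0 between the routes in edgeR, with log2 differences from -0.57 ± 0.79 for Agt to 0.43 ± 0.28 for Hsd11b2. Over 20 animals they ran from -0.16 ± 0.21 for Agtr1a to 0.69 ± 0.86 for Agt. By size the Agt difference was then larger than that of Sgk1, with a larger error. Under the 8 other settings the Agt difference reached 0.956.

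Immediate early genes, which rise quickly in stressed or handled tissue, were set beside Sgk1. Of 9 tested, 4 were higher after i.v. ABCB5+ than in Ctrl at an unadjusted p under 0.05 in edgeR (4.44% of all genes) and 4 were lower after i.p. than i.v. ABCB5+ (1.46% of all genes), with 0 at the adjusted threshold. Without the 4 animals these counts were 4 and 5 (0.753% and 0.683% of all genes). The summed level was 759 to 1414 CPM in Ctrl (median 835), 684 to 1724 after CoCM (904), 605 to 1421 after i.p. ABCB5+ (831) and 1133 to 1537 after i.v. ABCB5+ (1333), and none of the 9 was at 0 in any kidney. Over the 20 animals Sgk1 and this sum had Pearson r = 0.392 and rho = 0.284 (permutation p = 0.0859 and 0.223, adjusted p = 0.201 and 0.401), and r = 0.205 with group means removed, so that no relation between them passed the threshold. Their part in the Sgk1 difference was not tested.

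**Figure D2:**
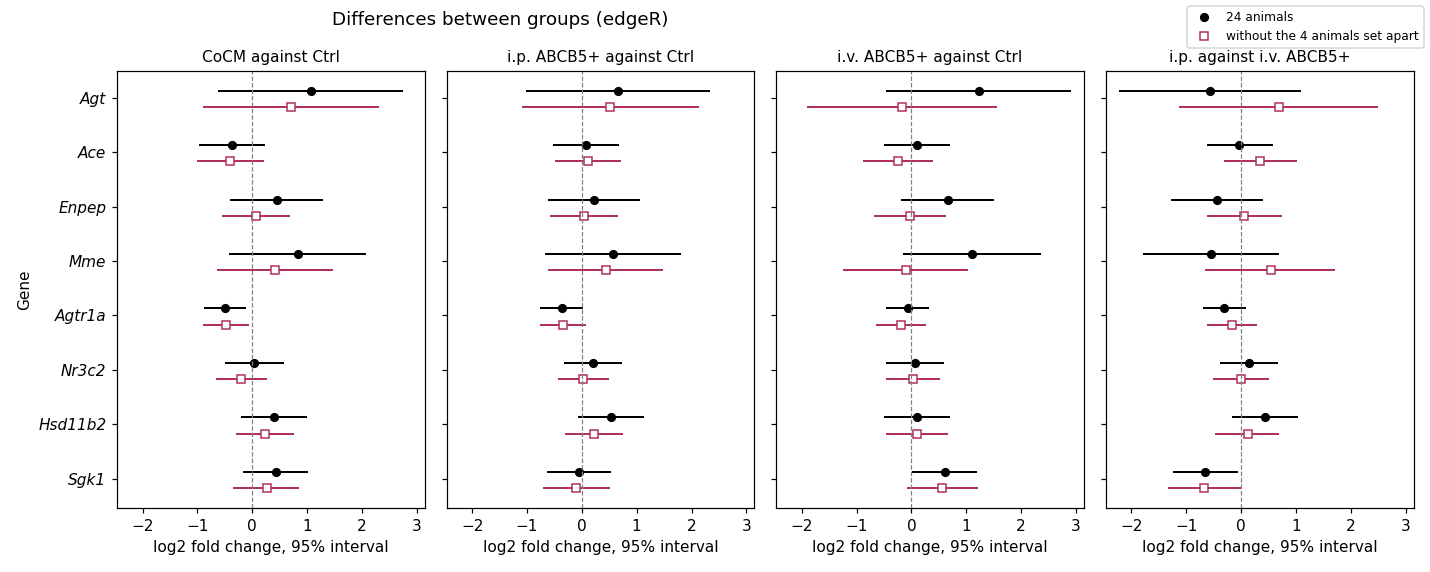
Log2 fold change of each gene (horizontal axes, with 95% interval, edgeR) in 4 comparisons, over 24 animals (filled circles) and without the 4 animals that stood apart (open squares). The Agtr1a interval after CoCM and the Sgk1 intervals of the i.v. ABCB5+ panel and the panel of both routes leave out 0 with 24 animals, before adjustment over genes. The squares of Agt, Ace, Enpep and Mme lie on the other side of 0 in the i.v. ABCB5+ panel.

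Per transcript length the 8 genes differed by more than 100-fold. In TPM (the share of transcripts, corrected for their length), Hsd11b2 came first in all 4 groups, with 819 ± 365 (SD, n = 6) in Ctrl, and Ace last, with 4.26 ± 1.47. Sgk1 followed at 208 ± 72.0, then Enpep at 80.1 ± 36.9 and Mme at 70.5 ± 54.7. Below these came Agtr1a at 31.7 ± 6.12, Agt at 19.7 ± 22.2 and Nr3c2 at 16.98 ± 6.56 TPM.

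The gap between Hsd11b2 and Sgk1 and that between Nr3c2 and Ace held without overlap in all 4 groups. The other neighbours in the order overlapped, except Enpep and Agt after i.p. ABCB5+. Enpep and Mme changed places between groups, and so did Agt and Agtr1a. In Ctrl, Agt was above Nr3c2 in 3 of 6 kidneys.

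**Figure D3:**
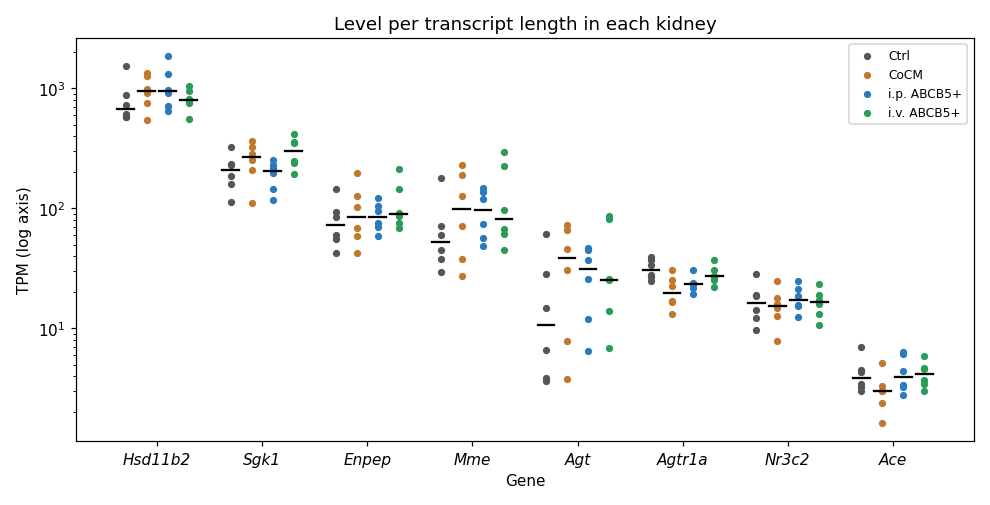
TPM of each gene (vertical axis, logarithmic) in each kidney, with genes ordered by their median and groups side by side. Points are single animals and bars the median of 6. Hsd11b2 stands above Sgk1 and Ace below Nr3c2 in every group, while the points of Agt spread over more than a factor of 10.

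The spread between kidneys of 1 group differed among the 8 genes. The SD of log2 CPM within groups was 1.58 for Agt, more than in 99.3% of the 12778 genes, and 1.09 for Mme, more than in 95.5%. Enpep followed at 0.71. Sgk1, Ace, Hsd11b2 and Nr3c2 lay between 0.45 and 0.52, and Agtr1a at 0.32 was close to the median of all genes, 0.30. Without the 4 animals Agt had 1.49, Mme 0.89 and Agtr1a 0.33, against a median of 0.23. Agtr1a then spread more than 67.8% of genes.

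Agt, Mme and Enpep followed each other from kidney to kidney. Correlations were computed over the 20 animals, since the 4 others form a cluster of their own, and 124 relations were adjusted together. For Agt and Mme, Pearson r was 0.961 and Spearman's rho 0.964, for Enpep and Mme 0.896 and 0.857, and for Agt and Enpep 0.871 and 0.878. The permutation p was 1e-05 for each of these, the smallest that 100000 permutations can give, and the adjusted p 0.000103 for r and 0.000113 for rho. Without the 2 kidneys farthest from the median r was 0.957, 0.859 and 0.833, and with group means removed 0.961, 0.910 and 0.884. Agt spanned 31.7-fold over the 24 kidneys, Mme 12-fold and Enpep 5.64-fold, and the log2 ratio of Mme to Agt ran from 2.11 to 4.31.

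The same 3 genes followed markers of the straight part of the proximal tubule (Slc7a13, Slc22a7, Slc5a1 and Slc17a3). With the summed level of these 4 markers, r over the 20 animals was 0.971 for Agt, 0.974 for Mme and 0.903 for Enpep (permutation p = 1e-05 and adjusted p = 0.000103 for each), and rho was 0.958, 0.971 and 0.859. The sum ran from 54.9 to 1021 CPM in Ctrl (median 189), 79.9 to 2018 after CoCM (839), 107 to 1391 after i.p. ABCB5+ (645) and 212 to 4783 after i.v. ABCB5+ (457), and Slc22a7 was at 0 in some kidneys. Of the 4 markers, 3 were higher after i.v. ABCB5+ than in Ctrl at an unadjusted p under 0.05 in edgeR with 24 animals (4.44% of all genes) and 0 with 20 (0.753%). Their part in the differences of Agt, Mme and Enpep was not tested.

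Enpep also followed the 8 markers of the proximal tubule as a whole (r = 0.890, rho = 0.937, permutation p = 1e-05), more closely than Agt (r = 0.632) or Mme (r = 0.641) did in these values. The difference between these correlations was not tested. Agt and Mme followed the 4 markers of the thick ascending limb with r = 0.896 and 0.899 (permutation p = 1e-05 for each), and Enpep with r = 0.747 (p = 0.00024). With group means removed these were 0.900, 0.895 and 0.762.

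Nr3c2 and Hsd11b2 formed the other pair. Over the 20 animals r was 0.699 and rho 0.659 (permutation p = 0.00054 and 0.00219, adjusted p = 0.00446 and 0.0129), with r = 0.597 without the 2 kidneys farthest from the median. Both followed the sum of the distal convoluted tubule markers Slc12a3 and Calb1, with r = 0.885 for Nr3c2 and 0.862 for Hsd11b2 (permutation p = 1e-05 for each). Hsd11b2 followed the 7 principal cell markers with r = 0.898 and Nr3c2 with r = 0.616 (permutation p = 1e-05 and 0.00364). The log2 ratio of Hsd11b2 to Nr3c2 had an SD of 0.29 over 24 kidneys, less than the 0.62 of Mme to Agt. This does not make it the closer pair, because the SD within groups was 0.49 for Hsd11b2 and 0.45 for Nr3c2. It was 1.58 for Agt and 1.09 for Mme, whose r was 0.961.

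Ace ran against Hsd11b2 (r = -0.672, rho = -0.642, permutation p = 0.00122 and 0.00274, adjusted p = 0.00945 and 0.0142), with r = -0.553 without the 2 farthest kidneys. With Mme its r was 0.534 (permutation p = 0.0156, adjusted p = 0.0628), which missed the threshold. Agtr1a followed the 5 endothelial markers (r = 0.758, rho = 0.701, permutation p = 7e-05 and 0.00085), with r = 0.622 without the 2 farthest kidneys. It also followed the 6 vascular smooth muscle and pericyte markers (r = 0.587, rho = 0.638, permutation p = 0.00679 and 0.00318, adjusted p = 0.0351 and 0.0158), with r = 0.419 without the 2 farthest kidneys and 0.664 with group means removed. Of the 28 pairs among the 8 genes, 5 passed an adjusted p of 0.05 for r, and none of the 5 held Agtr1a or Sgk1.

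**Figure D4:**
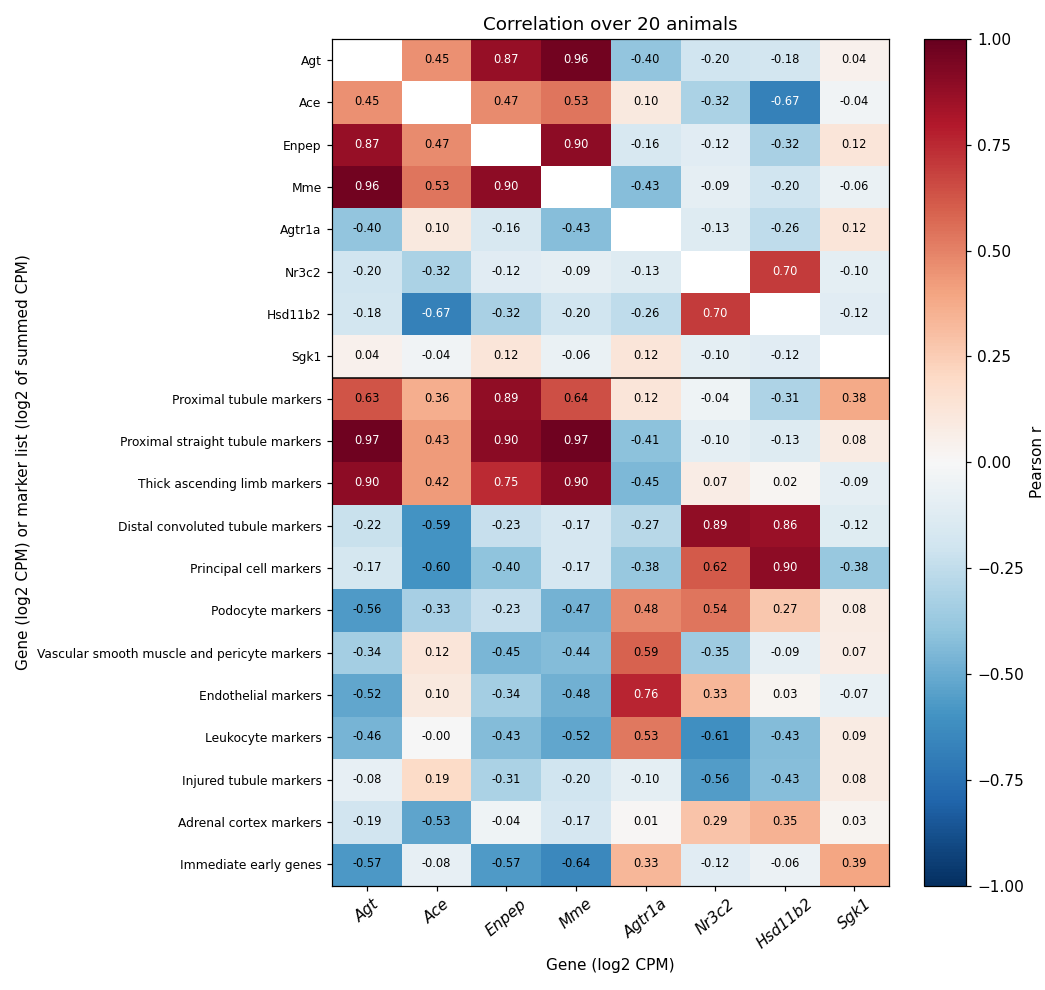
Pearson r of log2 CPM over 20 animals between each of the 8 genes (columns) and the 8 genes and 12 marker lists (rows, lists as log2 of their summed CPM). Colour runs from blue at -1 to red at 1, and each cell holds its r. Agt, Enpep and Mme form a red block with the proximal straight tubule and thick ascending limb markers, and Nr3c2 and Hsd11b2 with the distal convoluted tubule markers.

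**Figure D5:**
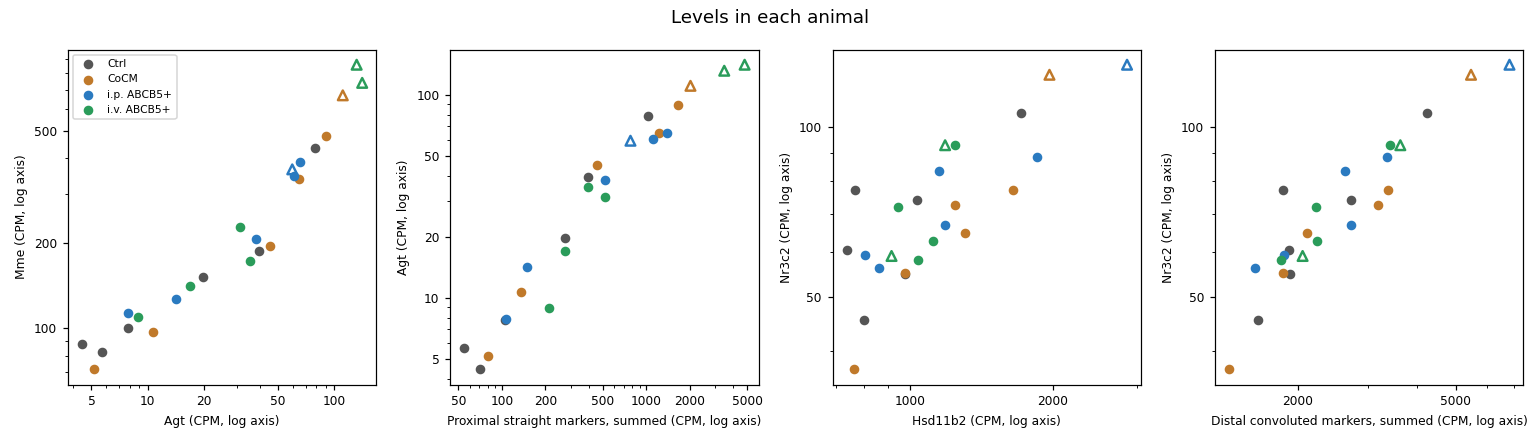
CPM of pairs of genes, or of a gene against a summed marker list, in each of 24 kidneys (both axes logarithmic). Circles are the 20 animals used for correlations and open triangles the 4 that stood apart, coloured by group. Agt and Mme lie along a line through all groups, as do Agt and the 4 proximal straight tubule markers, while Nr3c2 scatters more widely against Hsd11b2 than against the distal convoluted tubule markers.

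For each of the 8 genes the 3 genes most like it in pattern were taken from 11653 genes by Pearson r over the 20 animals. For Agt these were Slco1a3 (0.992), the vitamin D-binding protein gene Gc (0.991) and Gclc (0.987). For Mme they were Gclm (0.996), Zfp2 (0.986) and the peptide transporter gene Slc15a2 (0.983), so that Agt and Mme each had a subunit of glutamate-cysteine ligase, the first enzyme of glutathione synthesis, among their 3. For Enpep they were Sult1c2a (0.984), Pm20d1 (0.974) and Ppp2r1b (0.972).

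For Nr3c2 the nearest were Tmem52b (0.964), Kitlg (0.945) and Sall3 (0.941). For Hsd11b2 they were Degs2 (0.971), the ammonia transporter gene Rhcg (0.963) and Scnn1b (0.953), the beta subunit of the epithelial sodium channel. Ace, Agtr1a and Sgk1 had no gene above 0.88. Their nearest were Lasp1 (0.874), Fkbp9 (0.863) and Sav1 (0.837) for Ace, and Tmem204 (0.877), Cdh11 (0.872) and Dpep1 (0.864) for Agtr1a. Those of Sgk1 were Errfi1 (0.873), Ifrd1 (0.862) and Ddit4 (0.851).

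Of the wider peptide pathway, 16 of 19 genes were tested and 0 passed the adjusted threshold in any comparison in edgeR, DESeq2, limma on TPM or limma voom. At an unadjusted p under 0.05, 1 was lower after CoCM (5.96% of all genes), 0 passed after i.p. ABCB5+, 2 were higher after i.v. ABCB5+ (4.44% of all genes) and 0 passed between the routes. With 20 animals 17 were tested, of which 3 were lower after CoCM (9.69% of all genes) and 0 passed in the other comparisons.

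By the size of p in edgeR, the first genes of this list after CoCM were the oligopeptidase gene Nln (-0.23 ± 0.09, adjusted p = 0.376) and the aminopeptidase gene Lnpep (-0.71 ± 0.37, 0.443). After i.p. ABCB5+ Klk1, a kallikrein gene with near-identical copies in the rat, came first (0.78 ± 0.49, adjusted p = 0.978, and 0.11 ± 0.34 over 20 animals). After i.v. ABCB5+ they were Anpep (1.44 ± 0.66, adjusted p = 0.673), another brush border aminopeptidase gene, and Prep (0.86 ± 0.40, 0.673), and over 20 animals Anpep had -0.06 ± 0.55 and Prep -0.08 ± 0.32. Between the routes they were Prep (-0.58 ± 0.40) and Ctsa (-0.21 ± 0.17), both with an adjusted p of 1.0, and over 20 animals Prep had 0.34 ± 0.33. The log2 ratio of Anpep to Mme had an SD of 0.29 over 24 kidneys.

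Of the angiotensin receptors and their partners, 8 of 11 were tested and 0 passed the adjusted threshold in edgeR, DESeq2 or either limma fit. After CoCM 2 were lower at an unadjusted p under 0.05, Agtr1a itself and Gnaq (-0.60 ± 0.22, adjusted p = 0.346, edgeR), whose product couples the receptor to phospholipase C, and in the other comparisons 0 passed. Of all genes 5.96% were lower after CoCM by that measure. The count was 2 as well over the 20 animals, where Gnaq had -0.69 ± 0.23 (9.69% of all genes were lower). Mas1, the angiotensin 1-7 receptor gene, had 0.51 ± 0.34 after i.p. ABCB5+ and 0.68 ± 0.34 between the routes. Agtrap and Mtus1 came first after i.v. ABCB5+ with 0.14 ± 0.11 and 0.09 ± 0.11. Agtr2, the type 2 receptor gene, was too low to test.

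Of the corticosteroid receptors and steroid enzymes, 10 of 11 were tested and 0 passed the adjusted threshold in edgeR. Nr3c1, the glucocorticoid receptor gene, had 132 to 165 CPM in Ctrl (median 146), 111 to 118 after CoCM (112), 103 to 149 after i.p. ABCB5+ (123) and 114 to 162 after i.v. ABCB5+ (132). All 6 CoCM kidneys lay below all 6 Ctrl kidneys, and 1.38% of all genes were without overlap in this comparison. The log2 fold change of Nr3c1 after CoCM was -0.38 ± 0.09 (adjusted p = 0.188 in edgeR). This gene was 1 of 81 called by DESeq2 (-0.39, adjusted p = 0.00965) and 1 of 183 called by limma voom (-0.39, adjusted p = 0.0176), of 12778 tested. After i.p. ABCB5+ its log2 fold change was -0.23 ± 0.09 (adjusted p = 0.978, edgeR) and after i.v. ABCB5+ -0.14 ± 0.09.

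At an unadjusted p under 0.05 in edgeR, 1 gene of this list was lower after CoCM (5.96% of all genes), 2 were lower after i.p. ABCB5+ (0.509%), 2 were higher after i.v. ABCB5+ (4.44%) and 1 was lower after i.p. than i.v. ABCB5+ (1.46%). Without the 4 animals 1 was higher and 1 lower after CoCM (7.22% and 9.69% of all genes), 1 was lower after i.p. ABCB5+ (0.675%) and 0 passed in the other comparisons. They included Cyp11b2, the aldosterone synthase gene (-0.52 ± 0.22 after i.p. ABCB5+ and -0.53 ± 0.22 between the routes), and H6pd (0.45 ± 0.21) and Cyp21a1 (0.97 ± 0.46) after i.v. ABCB5+. Over 20 animals H6pd had 0.16 ± 0.19 and Cyp21a1 0.22 ± 0.46 there, and Cyp11b2 -0.42 ± 0.22 after i.p. ABCB5+ and -0.26 ± 0.24 between the routes. Cyp21a1 also had 0.90 ± 0.46 after CoCM. The 5 adrenal cortex markers, to which Cyp11b2 and Cyp21a1 belong, were low in these kidneys, with a summed level of the 4 tested of 17.6 to 31.04 CPM in Ctrl, 12.5 to 27.7 after CoCM, 8.23 to 20.7 after i.p. ABCB5+ and 14.6 to 26.9 after i.v. ABCB5+. The near-identical Cyp11b1 was at 0 in some kidneys and was not tested, and the part of adrenal tissue in these values was not tested.

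Of the aldosterone and glucocorticoid targets, 24 of 25 were tested, with Klhl3 not analysed here, and 0 passed the adjusted threshold in edgeR, DESeq2 or either limma fit. At an unadjusted p under 0.05, 1 was lower after CoCM (5.96% of all genes), 2 were higher after i.p. ABCB5+ (1.26%), 3 were higher after i.v. ABCB5+ (4.44%) and 4 were lower after i.p. than i.v. ABCB5+ (1.46%). Over the 20 animals 1 was higher and 1 lower after CoCM (7.22% and 9.69% of all genes), 0 passed after i.p. ABCB5+, 1 was higher after i.v. ABCB5+ (0.753%) and 4 were lower between the routes (0.683%), with 0 at the adjusted threshold. Over the 24 animals the median log2 fold change of the list was 0.27 after CoCM, 0.22 after i.p. ABCB5+ and 0.12 after i.v. ABCB5+. For all genes it was 0.01, 0.00 and 0.01. The list median was not taken over the 20 animals, so how far these medians rest on the 4 others is not shown. Oxsr1 (-0.21 ± 0.07, adjusted p = 0.307) came first after CoCM, and Scnn1a (0.53 ± 0.25) and the potassium channel gene Kcnj1 (0.60 ± 0.29) after i.p. ABCB5+, both with an adjusted p of 0.978 in edgeR. Rasd1 (0.57 ± 0.22) and Prss8 (0.67 ± 0.29), which encodes a protease that activates the sodium channel, came first after i.v. ABCB5+, both with an adjusted p of 0.673, and Rasd1 had -0.52 ± 0.22 between the routes. Over 20 animals Rasd1 had 0.77 ± 0.19 after i.v. ABCB5+ and -0.67 ± 0.19 between the routes, Prss8 0.11 ± 0.19 after i.v. ABCB5+, and Scnn1a 0.24 ± 0.19 and Kcnj1 0.32 ± 0.21 after i.p. ABCB5+.

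The 3 subunit genes of the epithelial sodium channel, the main end point of aldosterone in the collecting duct, were followed in all groups. Scnn1a had 138 to 259 CPM in Ctrl (median 163) and 146 to 489 after i.p. ABCB5+ (206). Scnn1b had 130 to 309 CPM in Ctrl (170) and 146 to 399 after i.p. ABCB5+ (219), with a log2 fold change of 0.38 ± 0.24. Scnn1g had 87.5 to 202 CPM in Ctrl (103) and 92.3 to 276 after i.p. ABCB5+ (133), with 0.35 ± 0.26. After CoCM the 3 had 0.37 ± 0.25, 0.32 ± 0.24 and 0.28 ± 0.26, and after i.v. ABCB5+ 0.12 ± 0.25, 0.05 ± 0.24 and 0.05 ± 0.26. Over 20 animals Scnn1b had 0.18 ± 0.23 and Scnn1g 0.10 ± 0.23 after i.p. ABCB5+. Over the same 20 the 3 genes had 0.16 ± 0.19, 0.21 ± 0.23 and 0.09 ± 0.23 after CoCM. After i.v. ABCB5+ they had 0.08 ± 0.20, 0.13 ± 0.24 and 0.04 ± 0.24 there. All of these missed the adjusted threshold in edgeR, as Hsd11b2 and Sgk1 did.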

How the data were processed

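Per the labels and the study's methods, RNA of whole left kidney was read on a BGISEQ-500 sequencer. The submitters' processing notes name Trim Galore 0.6.4, kallisto 0.4.6 and the build rn6, and the methods name DESeq2 and gene models of the human build. How strand was handled is not given in the sources used here. For each animal the authors deposited estimated counts, which were not normalized, and TPM values, scaled by transcript length and library total, for 17334 Entrez identifiers. Symbols came from an NCBI RefSeq table (GRCr8), in which 17179 identifiers were found.

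Estimated counts were rounded to whole numbers, filtered with filterByExpr by group and scaled by TMM, and a mean per group was fitted to all 24 animals in edgeR 4.0.16 (R 4.3.3, quasi-likelihood F-test, Benjamini-Hochberg adjustment over 12778 genes). Log2 CPM used a prior count of 2. Single genes were compared with the exact permutation test over animals. Standard errors are the log2 fold change divided by the square root of F. DESeq2 1.42.0, limma 3.58.1 on log2(TPM + 1) and with voom sample weights, other filters and scaling, and leaving out animals were alternatives. The code was tested on simulated counts.

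Total counts of 9304601 to 14125442 put 3 counts at 0.322 CPM in the smallest library, which covers counting error only. No libraries within a group agreed within sampling noise (smallest chi-square per degree of freedom 10.3). The 8 genes and all gene lists were chosen with earlier results of these data known. All 8 were named. Further genes were named if they passed the adjusted threshold, had 1 of the 2 smallest p of their list in a comparison, or were Nr3c1, Scnn1a, Scnn1b or Scnn1g, and for likeness the 3 genes of highest r with an average log2 CPM above 1. A few genes that this rule names are not reported here. Agtr1b was added after their values were seen. Promoter windows came from the RefSeq table of GRCr8.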

Additional observations from a re-analysis of the deposited data

Results flagged for a closer look

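In 2 of the 32 sets of 6 kidneys (8 genes in 4 groups), 1 kidney lay farther from the others than Dixon's 95% critical value of 0.625 allows. Chance sets apart about 1 in 20 such sets, or 1.6 of 32. Mme was 435.9 CPM in Ctrl animal 24, against 82.1 to 187 in the other 5 Ctrl kidneys, a gap of 0.703 of the whole range. The same kidney had the highest Agt (78.7 CPM), Enpep (394 CPM) and Ace (16.96 CPM) of the Ctrl group. Hsd11b2 was 1710.5 CPM in Ctrl animal 23, against 736 to 1037 in the others, a gap of 0.691. This kidney also had the highest Nr3c2 of its group (106 CPM) and the lowest Agtr1a (33.02 CPM).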

How the results depend on the processing

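No gene of the 8 passed the adjusted threshold under any of the 8 other settings or with any 1 animal left out. The smallest adjusted p reached was 0.0552, for Agtr1a after CoCM with limma voom and sample weights. Of the log2 fold changes, 236 kept their direction under other settings and 20 turned, and with 1 animal left out 745 kept it and 23 turned. Without the 4 animals that stood apart, Nr3c2 after CoCM was -0.196, Agt, Ace, Enpep and Mme after i.v. ABCB5+ were -0.172, -0.245, -0.023 and -0.103, and between the routes Agt, Ace, Enpep, Mme and Nr3c2 were 0.687, 0.353, 0.058, 0.539 and -0.001. With voom weights Nr3c2 after CoCM was -0.070, Sgk1 after i.p. ABCB5+ 0.008, Ace after i.v. ABCB5+ -0.208, and between the routes Agt, Ace, Enpep, Mme and Nr3c2 were 0.956, 0.433, 0.168, 0.658 and -0.064. On log2(TPM + 1) with limma, Nr3c2 after CoCM was -0.099 and Ace between the routes 0.016. With 1 animal left out, Ace ran from -0.076 to 0.265 after i.p. ABCB5+, from -0.11 to 0.282 after i.v. ABCB5+ and from -0.167 to 0.184 between the routes. Nr3c2 ran from -0.183 to 0.179 after CoCM, from -0.038 to 0.207 after i.v. ABCB5+ and from -0.03 to 0.228 between the routes. Agtr1a after i.v. ABCB5+ ran from -0.183 to 0.004 and Sgk1 after i.p. ABCB5+ from -0.181 to 0.115. The cause was not tested.

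The number of genes called after CoCM (1 of 12778) was 81 with DESeq2, 183 with voom weights, and 0 with the 2 groups alone, with limma on TPM and without the 4 animals. Leaving out 1 animal gave 0 to 31, the 31 without Ctrl animal 23. It was 0 without CoCM animals 26, 27 or 39 or Ctrl animals 12, 18, 22 or 24, and 2 without i.v. ABCB5+ animal 37. DESeq2 called 1 gene after i.v. ABCB5+, 1 between the routes and 10 over the 4 groups, where voom called 1 and leaving out 1 animal gave 0 to 1. The number of the 8 genes with an exact p under 0.05 was 0 in all 4 comparisons without the 4 animals and 0 after i.v. ABCB5+ on log2(TPM + 1). With 1 animal left out it ran from 0 to 2 after CoCM, after i.p. ABCB5+ and between the routes, and from 0 to 1 after i.v. ABCB5+. Ranked over all 24 animals, of the 3 genes most like each gene 2 were shared for Agt, Ace, Mme and Nr3c2, 1 for Agtr1a, Hsd11b2 and Sgk1, and 0 for Enpep. No paired analysis was possible because no animal number occurs in more than 1 group.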
